A study of Mus musculus with 12 samples.

Results

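Genes of the heat shock proteins and their DNAJ cochaperones were examined in RNA-seq profiles of cells sorted as microglia from mouse midbrain. Members were taken by symbol: every gene whose name starts with Hspa, Hspb, Hspd, Hspe, Hsph, Hsp90, Dnaja, Dnajb or Dnajc, together with Hsf1, Fkbp4, Fkbp5, Stip1 and Bag3. This gave 74 of the 21135 genes in the table, and 61 of them passed the expression filter of at least 1 FPKM in at least 3 of 6 profiles. The other 13 members were not tested. The symbol rule also took Hspbp1 and Hspbap1, which are not small heat shock proteins, and the pseudogene Hspe1-ps4.

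The study crossed genotype with treatment, and the labels number 3 samples in each of 4 groups. KO MPTP and KO PBS animals carried floxed Ppargc1a alleles and a CreER transgene, whereas WT MPTP and WT PBS animals carried the floxed alleles alone. MPTP is a toxin of dopaminergic neurons, and PBS is the vehicle. Tamoxifen had been given 6 weeks earlier in all 4 groups, so the WT animals had received it too. The sources used here do not give the promoter that drives CreER, the sorting gate, the ages or the MPTP schedule. Whether replicates stem from different animals is not stated, and the spread behind each p-value may therefore be technical only.

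The 12 deposited columns held 6 separate profiles, KO MPTP 2, KO PBS 1, KO PBS 2, WT MPTP 1, WT PBS 1 and WT PBS 2, and the rest were arithmetic copies. KO PBS 2 also stood, multiplied by 1.02, under the heading KO MPTP 1, so its treatment cannot be told apart; it was described but left out of the tests of treatment. Ppargc1a, the targeted gene, stood at 0.42 FPKM in KO MPTP 2, 0.33 in KO PBS 1, 0.12 in KO PBS 2, 2.72 in WT MPTP 1, 5.70 in WT PBS 1 and 6.21 in WT PBS 2. The defining microglial genes were at or near 0, with Sall1 at 0, Cx3cr1 at 0.052 and P2ry12 at 0.192 FPKM on average, and 6 of the 10 microglial markers were under 1 FPKM. Markers shared by macrophages were high, as for Cd68 at 479 FPKM and Csf1r at 117 FPKM, while neuronal markers summed to at most 0.03 FPKM in any profile. All rows together summed to between 388861 and 425554 FPKM per separate profile, and the read depth is unknown.

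Chaperones of the Hsp70 family bind unfolded stretches of client proteins in a cycle driven by ATP, and J-domain proteins of the DNAJ classes deliver clients and stimulate that ATP hydrolysis. Clients such as kinases and steroid receptors pass on to Hsp90, with Stip1 bridging both chaperones and the immunophilins Fkbp4 and Fkbp5 joining late in the cycle. The transcription factor Hsf1 drives many of these genes in stressed cells through repeats of the pentamer nGAAn, called heat shock elements.

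Promoter sequences are shown for 4 members, because Hspd1, Fkbp4 and Dnaja1 are among those the results turn on and Hspa1a is the classical inducible Hsp70 gene. They come from RefSeq, build GRCm38.p6, and lie upstream of an annotated start on the strand of the gene. Capitals mark matches to GAANNTTC, which is an inverted pair of heat shock units read the same on both strands, and for Hspd1 the full run of such units. Hspd1 lies at chr1:55088014-55088121 (minus strand), Fkbp4 at chr6:128438755-128438852 (minus strand), Dnaja1 at chr4:40722299-40722396 (plus strand) and Hspa1a at chr17:34972208-34972305 (minus strand).
Hspd1: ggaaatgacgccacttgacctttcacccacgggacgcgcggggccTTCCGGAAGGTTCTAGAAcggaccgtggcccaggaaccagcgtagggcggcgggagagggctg
Fkbp4: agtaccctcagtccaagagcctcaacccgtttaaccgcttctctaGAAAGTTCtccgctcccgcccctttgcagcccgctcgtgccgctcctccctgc
Dnaja1: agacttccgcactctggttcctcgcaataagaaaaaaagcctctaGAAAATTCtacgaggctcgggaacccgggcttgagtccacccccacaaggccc
Hspa1a: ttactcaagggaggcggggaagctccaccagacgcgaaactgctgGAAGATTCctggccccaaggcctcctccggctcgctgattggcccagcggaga

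In the Hspd1 promoter shown, an 18-base run joins heat shock units of both orientations, 126 bases before an annotated Hspd1 start. Hspe1, which encodes the partner of Hspd1 in the mitochondrial chaperonin, starts 216 bases from there on the opposite strand. The same run lies 71 bases before the Hspe1 start. Another annotated Hspd1 start lies 95 bases from the Hspe1 start, and the run lies downstream of that one. Promoter windows, 250 bases before to 50 bases after a start, were at hand for 60 of the 74 members. Hsp90ab1, Hspa8 and Hsp90aa1 are among the 14 members without a window, and the windows of Dnajb1 held none of the motifs below. GAANNTTC stood in the windows of 13 of these members (21.7%), against 9.04% of all genes and 7.86% of all 32851 windows. TTCNNGAA, the other arrangement, stood in 6 of the 60 members, against 9.60% of all genes and 8.52% of all windows. The longer form, GAANNTTC followed by NNGAA or TTCNNGAA followed by NNTTC, stood in 4 members (6.7%), Dnajb6, Hspd1, Hspe1 and Hsph1, against 0.66% of all genes and 0.60% of all windows. Such a match describes letters in the window and not a bound site; the longer form contains both shorter ones.

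Levels varied widely, with means between percentile 14.3 (Dnaja4) and percentile 99.9 (Hsp90ab1) of all genes. Of the 74 members, 9 averaged at least 100 FPKM, 33 averaged at least 10 FPKM and 6 averaged under 0.1 FPKM. FPKM is scaled by transcript length, so levels can be set side by side between genes. The most abundant were the constitutive cytosolic chaperones Hsp90ab1, at 1372 ± 215 FPKM, and Hspa8, at 1087 ± 84.6 FPKM (SD, n = 6 profiles of all groups). Hsp90aa1, the Hsp90 isoform that heat shock raises most, averaged 521 ± 44.2 FPKM, and Hspd1 averaged 310.2 ± 47.0 FPKM. Below them stood Hspa5 at 202 ± 19.9, Hspe1 at 161 ± 8.14, Hspa9 at 155 ± 5.77, Hsp90b1 at 151 ± 10.9 and Hspa4 at 101 ± 3.95 FPKM. Hspe1, Hspa9 and Hsp90b1 did not differ in level beyond their spread.

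Hspa1a, Hspa1b and Hspb1, which are strongly induced by heat shock, were low. Hspa1a ranged from 1.03 to 1.33 FPKM across the 6 profiles, and Hspa1b, its near-identical copy, from 0.22 to 0.49 FPKM. Reads of these neighbours could have been split between them, so their separate levels are uncertain. Hspb1, the small heat shock protein gene most strongly tied to stress, was listed at between 0 and 0.09 FPKM. KO and WT profiles overlapped for all 3. For Hspa1b both MPTP profiles were highest, with 0.49 FPKM in KO MPTP 2 and 0.45 in WT MPTP 1, at levels too low for the filter.

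**Figure D1:**
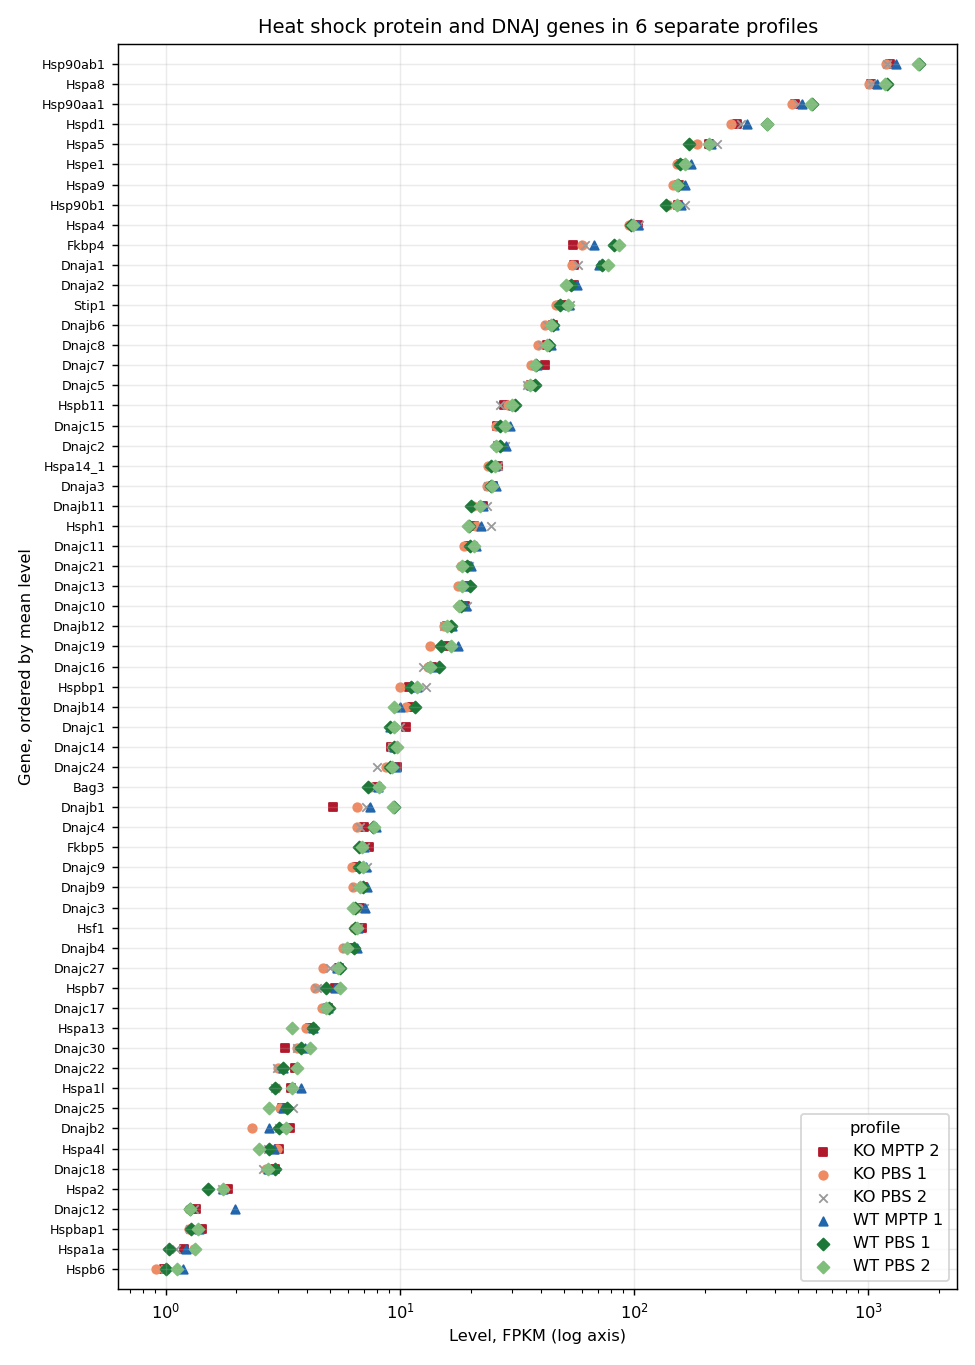
Level of each of the 61 tested members in the 6 separate profiles, in FPKM on a log axis, ordered by mean. Hsp90ab1 and Hspa8 lie farthest to the right, and for Hsp90ab1, Hspa8, Hsp90aa1 and Hspd1 both WT PBS diamonds lie to the right of the other 4 symbols.

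A set of chaperones, 6 of them cytosolic and 1 mitochondrial, stood higher in both WT PBS profiles than in every other profile. This was so for 7 of the 61 tested members (11.5%): the Hsp90 genes Hsp90ab1 and Hsp90aa1, the Hsp70 gene Hspa8, the J-domain genes Dnaja1 and Dnajb1, the Hsp90 immunophilin Fkbp4 and the chaperonin gene Hspd1. Among all 10636 tested genes the share was 3.90%. Among genes of at least 100 FPKM it was 4 of 9 members, against 5.89% of 543 genes. The ordering was chosen after the values were seen, and with earlier results of these data known, so it is a description. Both WT PBS profiles were below the other 4 for 2 members, Hsph1 and Dnajc3 (3.28%), against 3.41% of tested genes.

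Hsp90ab1 stood at 1242 FPKM in KO MPTP 2, 1192 in KO PBS 1, 1198 in KO PBS 2, 1311 in WT MPTP 1, 1652 in WT PBS 1 and 1635 in WT PBS 2. Hsp90aa1, which shares most clients with it, stood at 484 FPKM in KO MPTP 2, 471 in KO PBS 1, 500.3 in KO PBS 2, 522 in WT MPTP 1, 576 in WT PBS 1 and 571 in WT PBS 2. Both genes were thus highest in the WT PBS pair and next highest in WT MPTP 1, with the 3 KO profiles lowest. The gap was wider for Hsp90ab1, whose ratio to Hsp90aa1 was 2.57 in KO MPTP 2, 2.53 in KO PBS 1, 2.40 in KO PBS 2, 2.51 in WT MPTP 1, 2.87 in WT PBS 1 and 2.87 in WT PBS 2. Hsp90b1, the Hsp90 of the endoplasmic reticulum, showed no such order, with 154 FPKM in KO MPTP 2, 139 in KO PBS 1, 165 in KO PBS 2, 159 in WT MPTP 1, 137 in WT PBS 1 and 152 in WT PBS 2.

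Hspa8, the constitutive cytosolic Hsp70, stood at 1022 FPKM in KO MPTP 2, 1006 in KO PBS 1, 1029 in KO PBS 2, 1086 in WT MPTP 1, 1199 in WT PBS 1 and 1183 in WT PBS 2. The J-domain gene Dnaja1, whose protein delivers clients to Hspa8, stood at 55.5 FPKM in KO MPTP 2, 54.5 in KO PBS 1, 57.6 in KO PBS 2, 70.5 in WT MPTP 1, 72.8 in WT PBS 1 and 77.7 in WT PBS 2. Dnajb1, which works with Hsp70 in dissolving aggregates, stood at 5.19 FPKM in KO MPTP 2, 6.57 in KO PBS 1, 7.17 in KO PBS 2, 7.44 in WT MPTP 1, 9.45 in WT PBS 1 and 9.30 in WT PBS 2. WT MPTP 1 lay near the KO profiles for Hspa8 and Dnajb1 and near the WT PBS pair for Dnaja1.

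The immunophilin Fkbp4 stood at 54.6 FPKM in KO MPTP 2, 60.0 in KO PBS 1, 61.5 in KO PBS 2, 67.6 in WT MPTP 1, 82.0 in WT PBS 1 and 86.2 in WT PBS 2. Its relative Fkbp5, a glucocorticoid target, stood between 6.71 and 7.39 FPKM, with KO and WT profiles overlapping. Stip1, the adaptor between Hsp70 and Hsp90, had 49.4 FPKM in KO MPTP 2, 46.4 in KO PBS 1, 53.2 in KO PBS 2, 52.5 in WT MPTP 1, 48.4 in WT PBS 1 and 52.0 in WT PBS 2. The order of Fkbp4 was therefore not shared by these neighbours in the Hsp90 cycle.

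Hspd1, the large ring subunit of the mitochondrial chaperonin, stood at 276 FPKM in KO MPTP 2, 260.4 in KO PBS 1, 286 in KO PBS 2, 303 in WT MPTP 1, 369 in WT PBS 1 and 368 in WT PBS 2. Hspe1, its lid, stood at 158 FPKM in KO MPTP 2, 152 in KO PBS 1, 161 in KO PBS 2, 175 in WT MPTP 1, 156 in WT PBS 1 and 165 in WT PBS 2. The profiles thus ranked differently for these genes, although the promoter window of an annotated Hspd1 start overlaps that of Hspe1. The ratio of Hspd1 to Hspe1 was 1.75 in KO MPTP 2, 1.71 in KO PBS 1, 1.77 in KO PBS 2, 1.73 in WT MPTP 1, 2.36 in WT PBS 1 and 2.22 in WT PBS 2. Hspa9, the mitochondrial Hsp70, stood between 147 and 164 FPKM, with the WT PBS pair inside the range of the others.

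**Figure D2:**
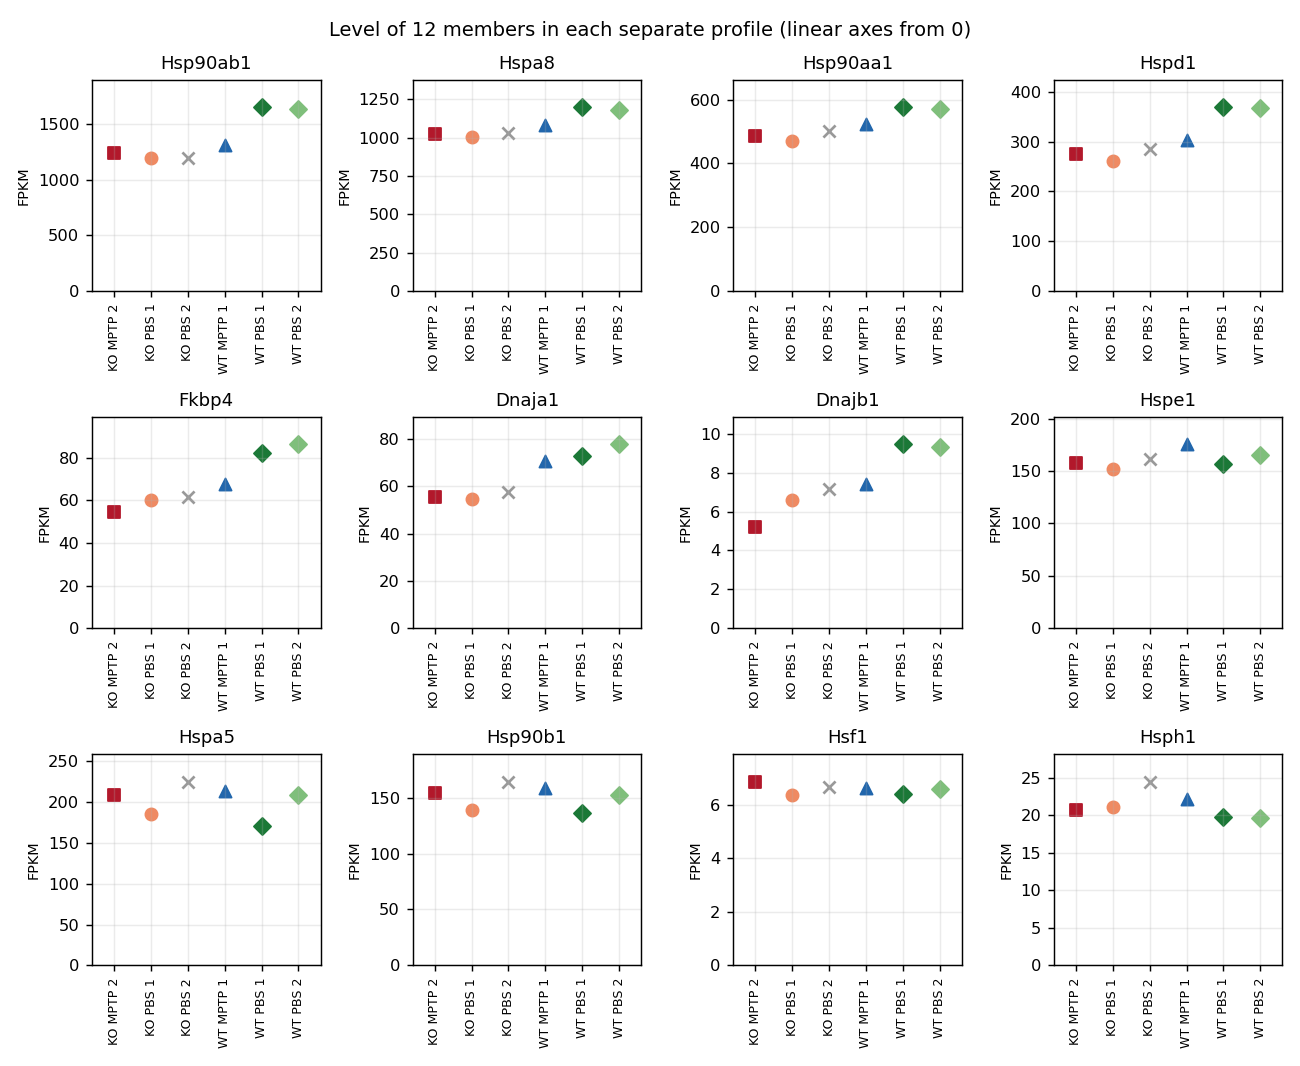
Level of 12 members in each separate profile, in FPKM on linear axes that start at 0, with 1 point per profile. The first 7 panels show the genes whose WT PBS profiles both exceed the other 4, and the last 5, Hspe1, Hspa5, Hsp90b1, Hsf1 and Hsph1, show genes that do not follow this order.

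For these 7 genes the mean of the other 4 profiles differed from the mean of the WT PBS pair by between -13.0% (Hspa8) and -29.7% (Dnajb1). Together they held 0.767% of all FPKM in KO MPTP 2, 0.784% in KO PBS 1, 0.805% in KO PBS 2, 0.791% in WT MPTP 1, 0.986% in WT PBS 1 and 0.955% in WT PBS 2. The other 67 members held between 0.357% and 0.392% in all profiles, with WT PBS 1 lowest and KO PBS 2 highest. These 67 are what the choice by order left, so their share cannot show whether that order was confined to the 7. In bulk profiles like these, less RNA per cell and fewer cells of a type cannot be told apart. Early genes of cell stress, a list of 22 that includes Jun, Dusp1 and Atf3, summed to 339 FPKM in KO MPTP 2, 325 in KO PBS 1, 326 in KO PBS 2, 340 in WT MPTP 1, 384 in WT PBS 1 and 348 in WT PBS 2. That sum was also highest in the WT PBS pair, with Fosb and Egr1 near 0 throughout, and its part in the result was not tested. Jun, Dusp1 and Atf3 were highest in both WT PBS profiles, but most genes of the list were not. Ier3 stood at 91.3 FPKM in WT PBS 1, 62.1 in WT PBS 2, 64.4 in KO PBS 1 and 58.2 in WT MPTP 1. Ier2 stood at 10.9 FPKM in WT PBS 1 and 14.1 in WT MPTP 1.

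A limit of the deposited table touches 4 of the 7. In Dnaja1, Dnajb1, Fkbp4 and Hspd1 a row departs from the arithmetic that otherwise links the columns, as it does in only 42 genes of the table. For Hspd1, WT MPTP 2 is listed at 296 FPKM where the relation gives 306 FPKM, and for Dnajb1, KO MPTP 1 is listed at 5.28 FPKM where it gives 7.28 FPKM. The departures of Dnaja1 (44.97 FPKM listed, 45.17 from the relation, in WT MPTP 2) and Fkbp4 (51.62 listed, 51.42 from the relation, in KO MPTP 1) are small. Hsp90ab1, Hspa8 and Hsp90aa1 have none. Neither departing column is among the separate profiles given above. With such genes left out, the order held for 3 of 57 members (5.26%), against 3.68% of tested genes. Over all tested genes it held for 415 of 10636, and for 390 of 10596 with departing genes left out. Most of the tested genes with a departing row thus held the order, so departures and order coincide beyond these 4 members. How the departing values arose was not tested.

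In FPKM the same genes also separated by genotype, since WT MPTP 1 exceeded the KO profiles. All rows summed to 425554 FPKM in WT MPTP 1, against 409278 in KO MPTP 2, 388861 in KO PBS 1 and 389882 in KO PBS 2. As a share of all FPKM, the 7 together stood higher in KO PBS 2 (0.805%) than in WT MPTP 1 (0.791%). On that scale their sum did not separate by genotype. Most of the sum is Hsp90ab1 and Hspa8, so it does not give the order of each gene. All 3 KO profiles were below all 3 WT profiles in 13 of 61 tested members (21.3%), against 7.19% of all tested genes, and above them in 0 members, against 0.818%. Beside the 7, the 13 held Dnajc4, Dnajc8, Dnajc14, Dnajc30, Hspb6 and Hspb11. The 7 had been chosen with both WT PBS profiles above all others, so only WT MPTP 1 against the KO profiles was not already fixed. The share of 21.3% thus partly repeats that choice and is not a separate result. Some margins were very small. For Hspb6 the highest KO profile stood at 0.99 FPKM (KO PBS 2) and the lowest WT profile at 1.00 (WT PBS 1). For Dnajc8 they stood at 42.38 FPKM (KO MPTP 2) and 42.43 (WT PBS 2). These orders are in FPKM and were not scaled by the total of each profile. Hspb11, known also as an intraflagellar transport protein, stood at 27.9 FPKM in KO MPTP 2, 28.9 in KO PBS 1, 26.7 in KO PBS 2, 30.5 in WT MPTP 1, 30.8 in WT PBS 1 and 30.1 in WT PBS 2. Dnajc4 stood at 7.01 FPKM in KO MPTP 2, 6.57 in KO PBS 1, 6.77 in KO PBS 2, 7.93 in WT MPTP 1, 7.66 in WT PBS 1 and 7.72 in WT PBS 2. In both genes the lowest WT profile lay above the highest KO profile. With genes off the relations left out, 9 of 57 members were lowest in KO (15.8%), against 7.04% of tested genes. These 9 still held Hsp90aa1, Hsp90ab1 and Hspa8, which are among the 7.

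Without toxin, Fkbp4 was lower in KO PBS than in WT PBS, and no other member passed. KO animals also carried CreER, which WT animals lacked, so the transgene and the loss of Ppargc1a cannot be told apart. KO PBS held 1 profile in this test. In KO PBS against WT PBS, limma called 1 of 61 tested members, and it was lower in KO, against 0.226% of all tested genes called lower and 0.00% called higher. Fkbp4 fell by 0.48 on the log2(FPKM + 1) scale (SE 0.078, limma adjusted p = 0.0474). With KO PBS 2 counted as KO PBS, and without WT PBS replicate 2 or KO PBS replicate 1, its limma adjusted p was 0.0567 and 0.065, and a pseudocount of 0.1 gave 0.0727. Hspd1 differed by -0.50 on that scale (SE 0.085, limma adjusted p = 0.0617) and Dnaja1 by -0.46 (SE 0.079, limma adjusted p = 0.0673), both just missing the threshold of 0.05. For Hsp90ab1 the log2 fold change was -0.46 with a wider error (SE 0.11, limma adjusted p = 0.374). At an unadjusted p under 0.05 in limma, 9 members were lower, against 4.07% of tested genes, and 0 were higher, against 0.376%. The highest fold changes were 0.13 for Hspa4l, 0.10 for Hsph1 and 0.09 for Hspa1a, none of them called. The median was -0.07 over members and -0.06 over all tested genes.

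Pooling the treatments gave 3 KO against 3 WT profiles, in a comparison added after the data were seen. There limma called 2 members lower in KO and 0 higher, against 0.0752% of all tested genes in either direction. At an unadjusted p under 0.05, limma had 9 members lower and 0 higher, against 2.97% and 0.527% of tested genes. Dnaja1 fell by 0.39 on the log2 scale (SE 0.055, limma adjusted p = 0.00737), and Fkbp4 fell by 0.41 (SE 0.075, limma adjusted p = 0.0487). Without WT PBS replicate 2 their limma adjusted p was 0.293 for Dnaja1 and 0.991 for Fkbp4, and without KO MPTP replicate 2 it was 0.121 and 0.463. Both have a row off the relations. Hsp90ab1, which has none, differed by -0.33 (SE 0.074, limma adjusted p = 0.126).

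In MPTP-treated animals no member passed. For KO MPTP against WT MPTP, limma called 0 of 61 tested members, against 0.132% of all tested genes (0.0658% higher and 0.0658% lower), and 4 were lower and 0 higher at an unadjusted p under 0.05, against 0.762% and 2.86%. The lowest log2 fold changes were -0.45 for Dnajb1 (SE 0.11), -0.35 for Dnajc12 (SE 0.11) and -0.34 for Dnaja1 (SE 0.092). Dnajb2, Dnajc1 and Dnajb14 had the highest, at 0.23, 0.21 and 0.16. Each group held 1 profile here, so the spread comes from the WT PBS pair and from the other genes.

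In WT animals MPTP likewise gave 0 called members of 61 in limma, against 0.254% of all tested genes (0.0470% higher and 0.207% lower). At an unadjusted p under 0.05, 4 members were lower and 1 was higher, against 1.06% and 1.63%. Hsp90ab1 had a log2 fold change of -0.33 (SE 0.11), Fkbp4 one of -0.31 (SE 0.078) and Dnajb1 one of -0.30 (SE 0.092). Dnajc12, a cofactor of Hsp70 in the folding of aromatic amino acid hydroxylases, had the highest, 0.39 (SE 0.094, limma adjusted p = 0.469). It stood at 1.34 FPKM in KO MPTP 2, 1.26 in KO PBS 1, 1.32 in KO PBS 2, 1.98 in WT MPTP 1 and 1.27 in both WT PBS profiles, so in the sum WT MPTP 1 alone was high. That excess lay in a minor table entry, Dnajc12_3, at 0.74 FPKM in WT MPTP 1 and at most 0.38 elsewhere. The main entry, Dnajc12_1, stood at 1.23 FPKM in WT MPTP 1 and 1.28 in KO MPTP 2. The next highest log2 fold changes were those of Hspa1l at 0.19 and Hspa5 at 0.17.

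In KO animals, KO MPTP against KO PBS also gave 0 called members of 61 in limma, against 0.291% of all tested genes (0.216% higher and 0.0752% lower). At an unadjusted p under 0.05, 2 were higher and 1 was lower, against 8.79% and 0.451%. Dnajb2, a J-domain gene best known from neurons, differed by 0.39 on the log2 scale (SE 0.11, limma adjusted p = 0.302). It stood at 3.39 FPKM in KO MPTP 2, 2.34 in KO PBS 1, 3.04 in KO PBS 2, 2.75 in WT MPTP 1, 3.05 in WT PBS 1 and 3.26 in WT PBS 2, so KO PBS 1 was low rather than KO MPTP 2 standing apart. Dnajc19, of the mitochondrial import motor, and Hspb7 followed at 0.25 and 0.23. Dnajb1, Fkbp4 and Dnajc30 were lowest, at -0.29, -0.13 and -0.13. All genes had a median of 0.09 here and members one of 0.08.

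The response to MPTP was not shown to differ between genotypes for any member. The interaction gave 0 called members of 61 in limma, against 0.0752% of all tested genes, with 3 higher and 1 lower at an unadjusted p under 0.05, against 4.73% and 0.451%. Its highest values were 0.54 for Dnajb2 (SE 0.15), 0.39 for Hsp90ab1 (SE 0.17) and 0.36 for Hspd1 (SE 0.13). The lowest were -0.34 for Dnajc12 (SE 0.14), -0.19 for Hsph1 (SE 0.12) and -0.12 for Dnajc30 (SE 0.15). Comparisons that share a group use the same profiles, so these values are not independent of those above.

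**Figure D3:**
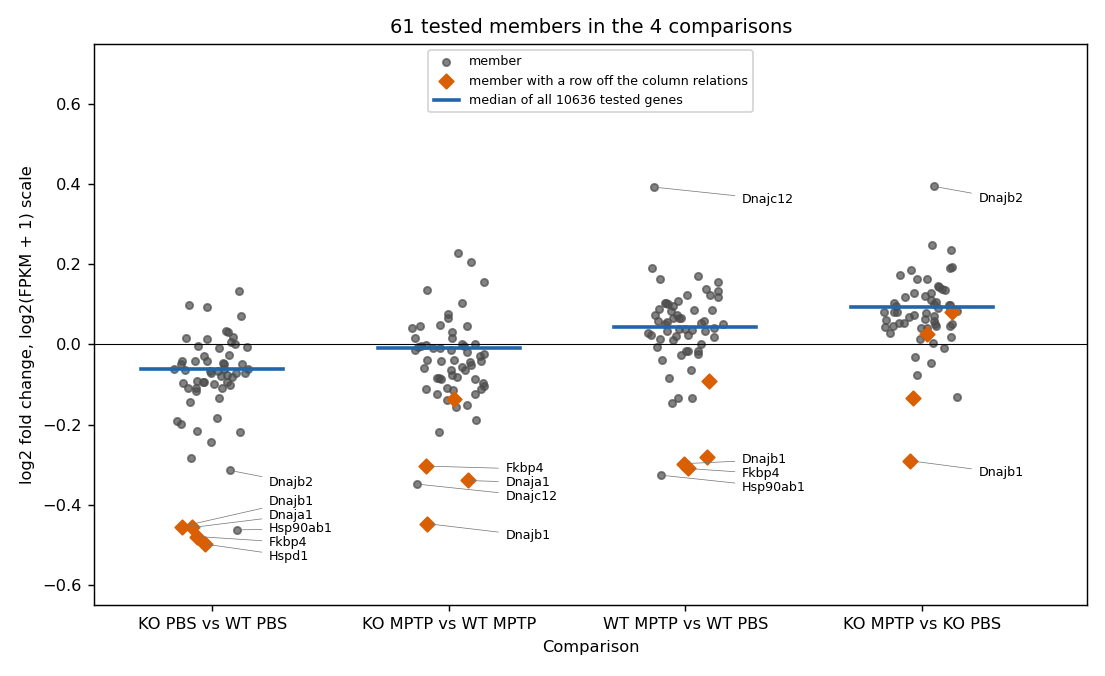
Log2 fold change of the 61 tested members in 4 comparisons, on the log2(FPKM + 1) scale, with 1 point per member, diamonds for the 4 members with a row off the column relations and a line at the median of all 10636 tested genes. In KO PBS against WT PBS, Hspd1, Fkbp4, Hsp90ab1, Dnaja1 and Dnajb1 lie apart from the other members, between -0.45 and -0.50.

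Members were also summed by the compartment where the proteins work. The 27 cytosolic and nuclear members held 0.801% of all FPKM in KO MPTP 2, 0.816% in KO PBS 1, 0.839% in KO PBS 2, 0.819% in WT MPTP 1, 0.993% in WT PBS 1 and 0.963% in WT PBS 2. The 8 mitochondrial members held 0.166%, 0.166% and 0.178% in KO MPTP 2, KO PBS 1 and KO PBS 2, against 0.174%, 0.191% and 0.190% in WT MPTP 1, WT PBS 1 and WT PBS 2. For the 10 members of the endoplasmic reticulum the WT PBS pair was not highest, with 0.112%, 0.107% and 0.125% in the same KO profiles, against 0.110%, 0.0998% and 0.110% in WT MPTP 1, WT PBS 1 and WT PBS 2. The order of the cytosolic and mitochondrial sums is that of the 7 genes already named. Without Hspd1 the other 7 mitochondrial members held 0.0984%, 0.0986% and 0.105% in KO MPTP 2, KO PBS 1 and KO PBS 2, against 0.103%, 0.0994% and 0.1002% in WT MPTP 1, WT PBS 1 and WT PBS 2. Without the 6 cytosolic genes the remaining 21 held 0.101%, 0.0991% and 0.107% in the same KO profiles, against 0.0990%, 0.0989% and 0.0975% in the same WT profiles. The WT PBS pair was highest in neither of these remainders. The genes taken out were picked for that very order, so the remainders cannot show whether it was confined to the 7. Compartments were assigned from textbook knowledge of the proteins, and members without a clear one were left out.

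**Figure D4:**
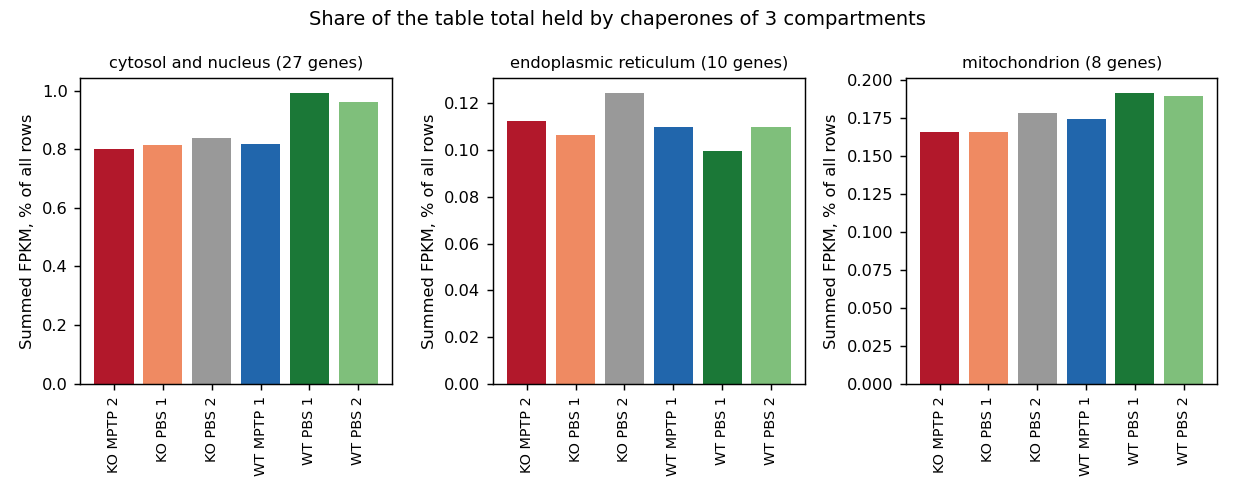
Share of all FPKM held by members of 3 compartments in each separate profile, in percent, with 1 bar per profile and axes from 0. The cytosolic bars of WT PBS 1 and WT PBS 2, at 0.993% and 0.963%, exceed the rest, which lie between 0.801% and 0.839%.

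The main members of the endoplasmic reticulum did not share the order of the 7. Hspa5, the Hsp70 of that compartment and a marker of its unfolded protein response, stood at 209 FPKM in KO MPTP 2, 185 in KO PBS 1, 225 in KO PBS 2, 213 in WT MPTP 1, 171 in WT PBS 1 and 209 in WT PBS 2. Its cochaperone Dnajb9 stood between 6.31 and 7.24 FPKM, with KO and WT profiles overlapping. Dnajc3, which restrains the kinase arm of that response, stood at 6.77 FPKM in KO MPTP 2, 6.53 in KO PBS 1, 6.99 in KO PBS 2, 7.08 in WT MPTP 1, 6.45 in WT PBS 1 and 6.28 in WT PBS 2. The WT PBS pair was lowest for Dnajc3, by a margin smaller than the gap between the pair.

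The regulators varied little. Hsf1 stood at 6.86 FPKM in KO MPTP 2, 6.36 in KO PBS 1, 6.64 in KO PBS 2, 6.61 in WT MPTP 1, 6.41 in WT PBS 1 and 6.57 in WT PBS 2. Bag3, an exchange factor of Hsp70 that feeds clients to autophagy, stood between 7.33 and 8.16 FPKM. Hsph1, the Hsp110 exchange factor, went the other way from Hspa8, with 20.6 FPKM in KO MPTP 2, 21.1 in KO PBS 1, 24.5 in KO PBS 2, 22.1 in WT MPTP 1, 19.7 in WT PBS 1 and 19.6 in WT PBS 2, and was not called in any comparison. Across the 61 tested members the coefficient of variation over the 6 profiles had a median of 5.6%, the same as over all tested genes. It was lowest for Dnajc14, at 2.1%, and highest for Dnajb1, at 21.7%, and 9 members reached 10%.

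The table lists several entries per gene, numbered after the symbol, and they did not move together. The members had 306 entries, up to 12 for 1 gene, and 21 had a single entry. What an entry stands for is not given in the sources used here. For Hspa8, entry 5 stood at 657 FPKM in KO MPTP 2, 637 in KO PBS 1, 651 in KO PBS 2, 691 in WT MPTP 1, 834 in WT PBS 1 and 813 in WT PBS 2. Entry 9 of Hspa8 stood at 330.2, 313 and 318 FPKM in KO MPTP 2, KO PBS 1 and KO PBS 2, against 331, 318 and 275 FPKM in WT MPTP 1, WT PBS 1 and WT PBS 2. The WT PBS order of Hspa8 thus lay in 1 entry. For Dnaja1, entry 5 stood at 31.6 FPKM in KO MPTP 2, 30.8 in KO PBS 1, 33.1 in KO PBS 2, 44.3 in WT MPTP 1, 50.6 in WT PBS 1 and 51.1 in WT PBS 2, and entry 6 stood between 14.8 and 17.4 FPKM with KO and WT profiles overlapping. Dnaja1 entry 5 is the one off the relations.

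**Figure D5:**
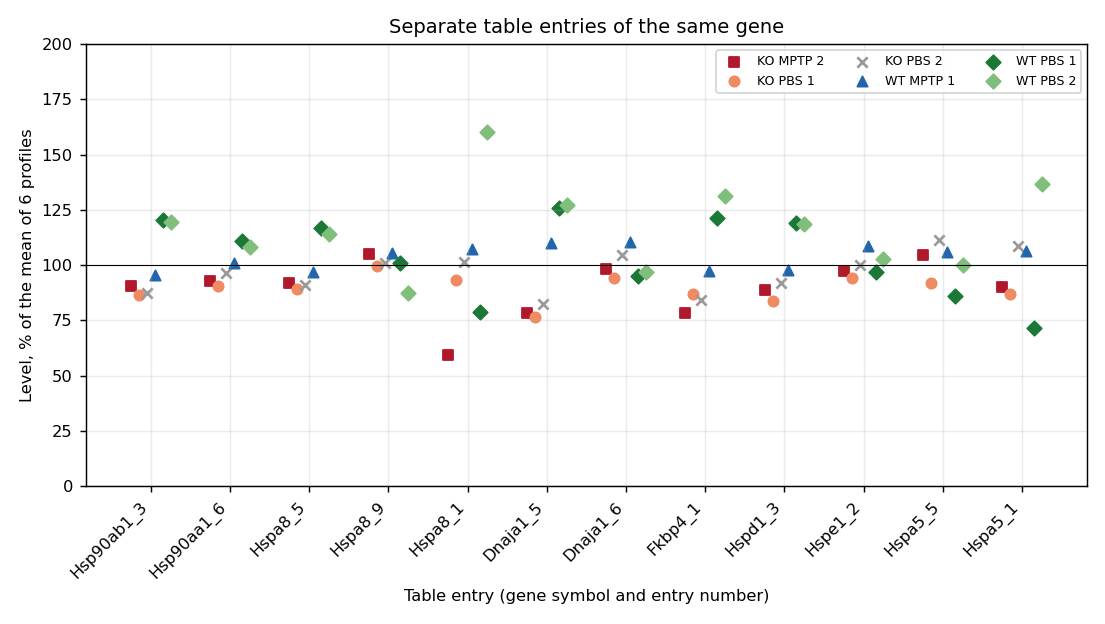
Level of single table entries of 8 members as a percent of the mean over 6 profiles, with 1 symbol per profile. Entries Hsp90ab1_3, Hspa8_5, Dnaja1_5, Fkbp4_1 and Hspd1_3 have both WT PBS diamonds on top, while Hspa8_9, Dnaja1_6 and Hspe1_2 do not.

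Other genes of the chaperone network, from lists written with earlier results known, gave 0 calls among 25 Hsp90 cochaperones, 13 exchange factors and partners of Hsp70, 14 genes of mitochondrial protein quality control, 4 J-domain genes under other symbols and 3 other heat shock factor genes, by limma, in the 5 comparisons by group and in KO against WT over 6 profiles. At an unadjusted p under 0.05, limma gave 2 of the Hsp90 cochaperones higher in WT MPTP against WT PBS and 4 higher in KO MPTP against KO PBS, where 1.63% and 8.79% of all tested genes did so. It gave 1 J-domain gene, Hscb, lower in KO PBS against WT PBS (4.07% of all tested genes) and 1 heat shock factor gene, Hsf4, higher in KO MPTP against WT MPTP (2.86%). Over 6 profiles it gave Hscb and the mitochondrial gene Clpx lower in KO (2.97%), and none in the rest of these lists. Their most abundant members stood at 101 FPKM (Fkbp8), 101 FPKM (St13), 183 FPKM (Tomm20), 29.1 FPKM (Gak) and 49.2 FPKM (Hsbp1) on average. Hsbp1, counted above with the heat shock factor genes, encodes a protein that binds such a factor and is not one itself. The factors Hsf2 and Hsf4 averaged 3.58 and 2.44 FPKM. Among 20 tested early genes of cell stress, limma called 1 in all, Nr4a1, an orphan nuclear receptor, lower in WT MPTP than in WT PBS, where 0.207% of all tested genes were called lower. Nr4a1 stood at 1.97 FPKM in KO MPTP 2, 3.56 in KO PBS 1, 3.13 in KO PBS 2, 1.97 in WT MPTP 1, 3.89 in WT PBS 1 and 3.95 in WT PBS 2, and fell by 0.73 on the log2 scale in WT MPTP against WT PBS (SE 0.096, limma adjusted p = 0.0116). At an unadjusted p under 0.05 in limma, 4 of these 20 were lower and 0 higher in KO PBS against WT PBS, against 4.07% and 0.376% of all tested genes, and 1 was lower and 4 higher in KO MPTP against KO PBS, against 0.451% and 8.79%. In WT MPTP against WT PBS 2 were lower and 1 higher, against 1.06% and 1.63%. The interaction gave 1 higher (4.73%), KO against WT over 6 profiles gave 3 lower (2.97%), and KO MPTP against WT MPTP gave 0.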

How the data were processed

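Total RNA from cells sorted as microglia was sequenced. The authors deposited 1 table of 67355 rows and 12 columns with no stated unit. Its values were taken as FPKM, per the submitters' processing notes, which name Cufflinks, TopHat, Bowtie 0.12.7, CASAVA 1.5 and the build mm9 without roles. The annotation and filters were not given in the sources used here, and without read depth no counting interval can be had. Rows were summed per symbol, and 1 row holding text was left out. Column 3 of each group equalled 0.99 times the mean of the others plus 0.1, and WT MPTP 2 and KO MPTP 1 were 1.02 times another column, to rounding. Those columns entered alternatives only.

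limma 3.58.1 in R 4.3.3 was fitted with a mean-variance trend to log2(FPKM + 1) of 5 separate profiles, 1 mean per group, over 10636 genes with at least 1 FPKM in at least 3 of 6 profiles. Benjamini-Hochberg adjustment ran over all tested genes, with a threshold of 0.05. Only WT PBS had 2 profiles, which left 1 residual degree of freedom, and the spread of that pair, moderated over genes, stands for every group. Fold changes on this scale understate those of low genes. The procedure was also run on simulated data with independent noise sized from the WT PBS pair. That run could not test whether this spread holds in the other groups. Alternatives changed the pseudocount, filter, scaling, summing of rows, use of KO PBS 2 and the profiles left out.

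Members, gene lists and tests were chosen with earlier results of these data known. Genes named were those called, the 3 highest and 3 lowest fold changes per comparison, the 10 most abundant members, a list of main chaperones and regulators, Ppargc1a, and per other list its called or most abundant gene; those named for an order of profiles, an entry, a motif or an unadjusted p were chosen after their values were seen. Promoters come from RefSeq on GRCm38.p6, another build than mm9, matched by symbol.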

Additional observations from a re-analysis of the deposited data

How the results depend on the processing

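The count of called members was small and depended on the settings. In KO PBS against WT PBS, 1 member was called. It became 0 with pseudocounts of 0.1 or 0.5, no filter, median ratio scaling, quantile normalization, the highest row per symbol, genes off the relations left out, or members off the relations not counted. It became 4 with a filter at 5 FPKM, 4 with KO PBS 2 entered as KO PBS, 4 with it entered as KO MPTP, 3 with the KO MPTP 1 column entered as KO MPTP, and 14 with 12 columns as libraries, which counts copies as replicates. Leaving out 1 profile at a time, with KO PBS 2 counted as KO PBS, gave 0 to 2. In the comparisons with 0 called members, 12 columns as libraries gave 18 for WT MPTP against WT PBS, 1 for KO MPTP against KO PBS, 18 for KO MPTP against WT MPTP and 3 for the interaction, and quantile normalization gave 1 for WT MPTP against WT PBS. For KO against WT over 6 profiles, 2 became 0 with no filter, median ratio scaling, quantile normalization, genes off the relations left out or members off the relations not counted, 1 with the highest row per symbol, 5 with a filter at 5 FPKM, and 0 to 5 without 1 profile. Same-numbered profiles of WT PBS and KO PBS correlated at 0.227 in their deviations from the group means. This is 1 pair of groups, and it includes KO PBS 2, whose treatment is unknown. Whether same-numbered samples were paired therefore cannot be told. The replicate block with KO PBS 2 as KO PBS gave 3 members for KO PBS against WT PBS. Fold changes of named members reversed in 5 cases: Hspa1a in KO PBS against WT PBS without WT PBS replicate 1 (-0.078) and without KO PBS replicate 1 (-0.051), with a range of -0.078 to 0.12 over the profiles left out, and with the highest row per symbol Dnajc12 (0.032) and Dnajc1 (-0.061) in KO MPTP against WT MPTP and Dnajc1 in KO against WT (-0.043). The cause was not tested. Over all genes, the calls ranged with these settings between 0 and 2150 for WT MPTP against WT PBS (27 as reported), 0 and 52 for KO MPTP against KO PBS (31), 0 and 1321 for KO PBS against WT PBS (24), 0 and 1539 for KO MPTP against WT MPTP (14), 0 and 127 for the interaction (8), and 0 and 50 for KO against WT (8). Single profiles in 3 of 4 groups and the unknown depth limit all tests.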
